A study of Mus musculus with 18 samples.

Results

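The Ifi200 family is a group of interferon-inducible mouse genes that lie side by side on chromosome 1, and 5 of them, Ifi202b, Ifi203, Ifi204, Mndal and Aim2, are described here out of 27997 genes in the expression table. They were selected on symbol as listed genes of a family known to differ between inbred strains, and with their values in the 6 groups already seen, so their levels and the differences between groups are given as a description and carry no p-values. The table held RNA-seq of 18 libraries from 3 mouse neural stem cell (NSC) lines, each collected as proliferating NSCs and as astrocytes, with 3 libraries in each of 6 groups.

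Both traced lines were grown from spinal cord and descend from cells with a history of DNGR-1 (Clec9a) expression, sorted by a reporter that Cre recombinase, expressed from the Clec9a gene, had switched on at the Rosa locus. The tdTomato line is labelled DNGR-1 +/- Tom+/- and the EYFP line DNGR-1 +/- EYFP+/-. The hippocampal line, labelled DNGR-1+/+, came from GlastCre Huwe1fl Rosa LSL-EYFP mice. Its RNA carried Huwe1 at 13.28 in NSCs and 13.09 in astrocytes, beside 13.06 to 13.32 in the groups of the traced lines. NSCs grew on laminin with EGF and bFGF and were collected on day 4, and astrocytes were made with BMP4 at 20 ng/ml and collected on day 6. The study's methods name BMP4 as the supplement of the astrocyte medium and list no EGF or bFGF in it. BMP4, the loss of these factors and the later day cannot be told apart, and "on BMP4" below means all of them together. The replicates of a group were passages 10 to 12 of a single line, so the spread between them, and every p-value given for other genes, measures repeat cultures of that line and not separate mice. The study's methods state that modified mice were backcrossed to C57BL/6J and were 6 to 14 weeks old unless specified otherwise. How far each line's mice were backcrossed is not given in the sources used here, and each line is a single culture, so line and genetic background cannot be told apart. The traced lines share the tissue and differ in reporter, while the EYFP and hippocampal lines both come from mice with an EYFP reporter and differ in tissue.

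Proteins of this family combine, in most members, a pyrin domain, through which death-domain proteins bind each other, with a HIN domain that binds DNA. Aim2 senses DNA in the cytosol and assembles an inflammasome, Ifi204 acts upstream of the STING adaptor in interferon induction, and Ifi202b lacks the pyrin domain and is known as a binding partner that limits Aim2. Ifi203 and Mndal (myeloid nuclear differentiation antigen like) are nuclear members with regulatory roles in transcription and cell growth. Interferon raises most family genes through STAT and IRF factors, and in the brain they are best known from microglia.

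All values below are the deposited log2 values, which behave like a regularized logarithm, although the sources used here do not name the transform. On such a scale weakly measured genes are drawn towards their own mean, so differences between low values may understate the change, and a gene with no read still has a value. The lowest value of each gene is called its no-read level here. On this scale 3.32, which is 10 on the linear scale, was the level a gene had to reach in at least 3 of the compared libraries to be tested. The median of genes that passed lay between 8.80 and 8.90 in every library. Astrocyte markers rose in 7 of 7 cases in each line on BMP4.

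The positions of the members are those of GENCODE M21 on GRCm38, all on chromosome 1. Ifi202b (ENSMUSG00000026535) lies at chr1:173962568-173982744 on the minus strand, Ifi203 (ENSMUSG00000039997) at chr1:173920407-173942672 on the minus strand and Ifi204 (ENSMUSG00000073489) at chr1:173747293-173766943 on the minus strand. Mndal (ENSMUSG00000090272) is annotated at chr1:173849126-173942491 on the minus strand, and its annotated extent covers 22085 bases of Ifi203 and all 16702 bases of Ifi211 on the same strand. Aim2 (ENSMUSG00000037860) lies on the plus strand at chr1:173350879-173466040 and shares 16817 bases with Cadm3, an adhesion molecule gene on the other strand. Reads that fall where Ifi203, Mndal and Ifi211 overlap could be split between them in counting, and whether counting used strand is not given in the sources used here. Of the 75-base stretches of each gene's transcripts, none of Ifi202b or Aim2 occurred in another gene, against 5.71% for Ifi203, 11.1% for Mndal and 13.2% for Ifi204. Of the stretches of Ifi204, 393 were shared with Ifi211.

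The promoters are shown because the members differed in level while lying next to each other, and because interferon-induced genes moved in the same libraries. RefSeq (GRCm38.p6) held entries for 4 of the 5 members, with no entry for Ifi204, and the 250 bases before each start were read 5′ to 3′ on the gene's strand. The starts are those of RefSeq: that of Ifi203 is 1 of 2 entries, and those of Mndal and Aim2 lie inside the longer GENCODE gene. Capitals mark GAAANNGAAA, the core of the interferon-stimulated response element (ISRE), read on both strands (TTTCNNTTTC), and TTCNNNGAA, the STAT-binding GAS motif, which reads the same on both. The windows are chr1:173880188-173880437 for Mndal, chr1:173942493-173942742 for Ifi203, chr1:173982845-173983094 for Ifi202b (all minus strand) and chr1:173420354-173420603 for Aim2 (plus strand).
Mndal: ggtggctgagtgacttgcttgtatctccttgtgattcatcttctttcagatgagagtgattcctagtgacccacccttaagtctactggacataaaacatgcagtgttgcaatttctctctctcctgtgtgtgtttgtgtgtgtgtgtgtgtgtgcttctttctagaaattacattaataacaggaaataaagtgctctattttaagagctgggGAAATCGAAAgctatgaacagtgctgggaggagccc
Ifi203: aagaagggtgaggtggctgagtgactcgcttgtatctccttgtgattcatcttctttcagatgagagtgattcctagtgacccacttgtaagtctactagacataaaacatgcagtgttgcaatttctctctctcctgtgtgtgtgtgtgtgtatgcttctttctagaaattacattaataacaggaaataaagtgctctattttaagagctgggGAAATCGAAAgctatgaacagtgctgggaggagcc
Ifi202b: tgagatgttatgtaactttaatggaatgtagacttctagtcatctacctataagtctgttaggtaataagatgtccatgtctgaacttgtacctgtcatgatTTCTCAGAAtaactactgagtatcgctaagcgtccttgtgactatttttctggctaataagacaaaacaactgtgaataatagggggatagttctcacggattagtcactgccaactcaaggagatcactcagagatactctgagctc
Aim2: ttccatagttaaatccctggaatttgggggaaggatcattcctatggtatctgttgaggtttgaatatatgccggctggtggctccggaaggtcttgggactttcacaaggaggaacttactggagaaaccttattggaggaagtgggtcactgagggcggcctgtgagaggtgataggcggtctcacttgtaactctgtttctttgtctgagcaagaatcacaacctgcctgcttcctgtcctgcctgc

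The ISRE core stood 36 bases before the start of Mndal and 35 bases before that of Ifi203, and it was present in 2.98% of all 32851 promoters of the RefSeq table (978 promoters). The Mndal and Ifi203 windows aligned over 249 columns with 93.6% identical bases. The Ifi202b window held no ISRE core and 1 GAS motif, 148 bases before the start, a motif present in 7.02% of all promoters (2306 promoters). The Aim2 window held neither, and its closest stretch to the ISRE core had 1 mismatch on the reverse strand (T8G, the base of TTTCNNTTTC first, counted from 1 at its 5′ end). The other start of Mndal had an ISRE core on the reverse strand 54 bases before it, and the other start of Ifi203 had none. Over 11 family genes with an entry, 8 had a window with the core. The same element, in capitals within 30 bases, is printed for these 8 genes to show how far its surroundings are shared.
Mndal: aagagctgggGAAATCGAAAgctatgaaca
Ifi203: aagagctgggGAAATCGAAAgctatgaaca
Ifi207: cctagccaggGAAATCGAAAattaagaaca
Ifi208: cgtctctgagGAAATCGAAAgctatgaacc
Ifi213: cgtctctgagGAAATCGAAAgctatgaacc
Ifi214: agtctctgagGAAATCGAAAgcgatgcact
Ifi205: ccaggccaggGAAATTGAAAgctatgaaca
Ifi211: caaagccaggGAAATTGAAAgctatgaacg
Ifi209 had no core in its window although that window was identical to the Ifi214 window in 94.8% of 250 aligned columns. A match is a description of letters, and no match says only that these letters are not in the window.

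Ifi202b was the member with the widest range. In hippocampal astrocytes it stood at 8.59, 9.61 and 9.04 in the 3 libraries (9.08 ± 0.51, SD, n = 3). The EYFP astrocytes were at 1.07, 1.17 and 1.21 and the tdTomato astrocytes at 2.15, 2.53 and 1.19. In NSCs the tdTomato libraries held 1.13, 1.12 and 1.15 and the EYFP libraries 1.07, 1.05 and 1.10, all within 0.1 of the lowest value of the gene, while the hippocampal libraries held 2.64, 2.09 and 1.80. The hippocampal astrocyte libraries thus overlapped with no other group, and the hippocampal NSCs stood above both other NSC groups. Hippocampal astrocytes exceeded tdTomato astrocytes by 7.12 and EYFP astrocytes by 7.93, the 5th and 3rd highest differences among 15448 genes that passed the level of 3.32 over all libraries. The EYFP and tdTomato astrocytes overlapped.

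Ifi203 was present at higher values in astrocytes of 2 lines. Hippocampal astrocytes held 6.47, 6.89 and 6.63, tdTomato astrocytes 5.18, 5.2 and 5.07, and EYFP astrocytes 3.41, 2.27 and 2.05. The 3 astrocyte groups did not overlap, and the order was hippocampal, tdTomato, EYFP. In NSCs the hippocampal line held 2.92, 2.79 and 3.11, above 1.65, 1.64 and 1.67 in the tdTomato line and 1.60, 1.58 and 1.94 in the EYFP line, and the NSCs of the traced lines overlapped. The hippocampal NSCs also overlapped with the EYFP astrocytes.

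Ifi204 was at its lowest value, within 0.1, in all 9 NSC libraries, which ranged from 0.85 to 0.93. Hippocampal astrocytes stood at 5.44, 4.79 and 4.64, tdTomato astrocytes at 4.03, 4.16 and 3.10, and EYFP astrocytes at 1.96, 1.33 and 0.97. The order of the lines was that of Ifi203, with no overlap between astrocyte groups. Every astrocyte library was above every NSC library.

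For Mndal the tdTomato astrocytes were highest. They held 5.15, 4.77 and 4.74, against 4.61, 4.47 and 4.29 in hippocampal astrocytes and 3.28, 3.20 and 1.74 in EYFP astrocytes. The tdTomato and hippocampal astrocytes did not overlap. Their means were 4.88 ± 0.23 and 4.46 ± 0.16 (SD, n = 3), a hippocampal minus tdTomato difference of -0.43. The NSC libraries were at 1.33, 1.32 and 1.34 in the tdTomato line, 1.28, 1.27 and 1.31 in the EYFP line and 1.68, 1.95 and 1.65 in the hippocampal line.

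Aim2 was not seen above its no-read level in 17 of 18 libraries, which lay between -2.14 and -2.13. The exception was tdTomato NSC replicate 2, at -1.99. The counts behind the values are unknown, so a low level of Aim2 RNA was not detectable here rather than shown to be absent.

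**Figure D1:**
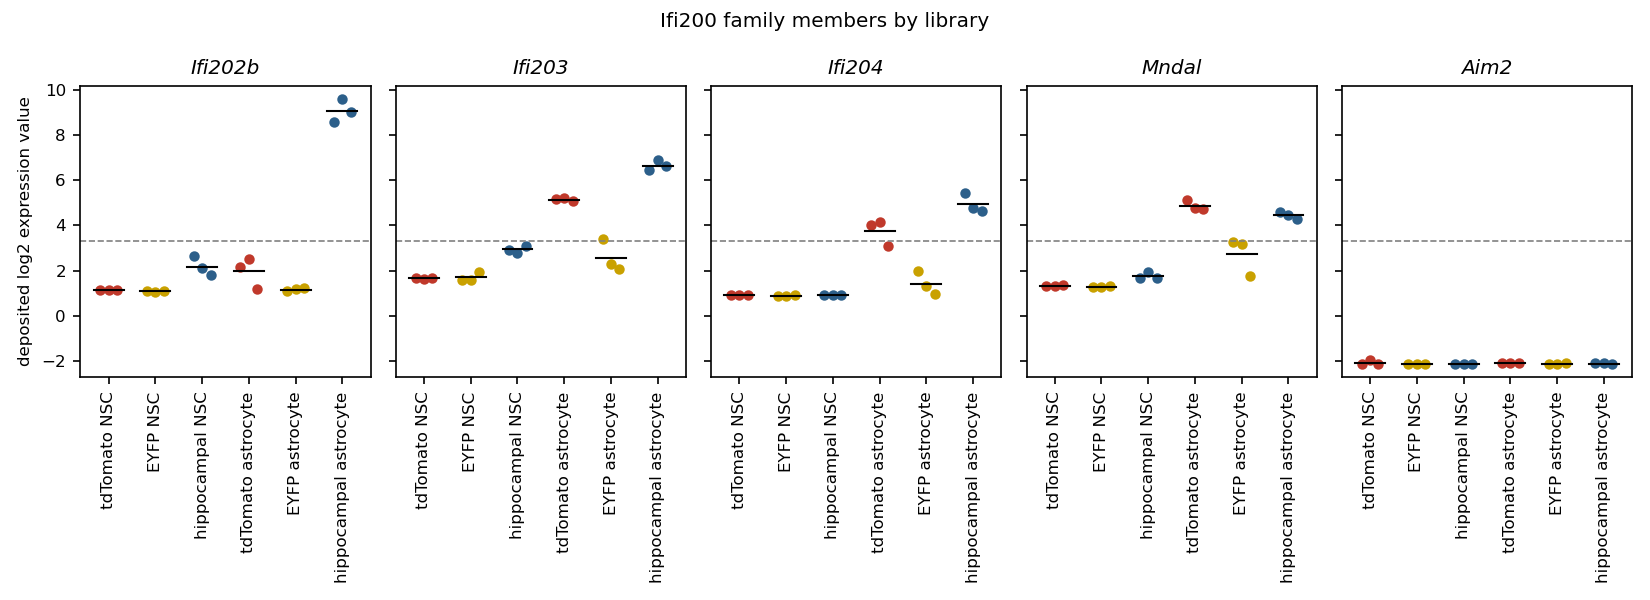
Deposited log2 value (y axis) of each member in each of 18 libraries, by group (x axis), with points for libraries, bars for group means and a dashed line at 3.32, the level required for testing. Ifi202b stands at 8.59 to 9.61 in hippocampal astrocytes and at 2.64 or below elsewhere, Ifi203, Ifi204 and Mndal are higher in tdTomato than in EYFP astrocytes, and Aim2 is flat.

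The comparison of astrocytes with NSCs asked what BMP4 differentiation did to each line. On average Ifi202b was higher in astrocytes than in NSCs by 6.90 (SE 0.28) in the hippocampal line, by 0.83 in the tdTomato line and by 0.08 in the EYFP line. For Ifi203 the difference was 3.72 (SE 0.18) in the hippocampal line, 3.50 (SE 0.18) in the tdTomato line and 0.87 in the EYFP line. Ifi204 differed by 4.04 (SE 0.26) in the hippocampal line, 2.85 in the tdTomato line and 0.55 in the EYFP line. Mndal differed by 2.70 (SE 0.22) in the hippocampal line, 3.55 (SE 0.21) in the tdTomato line and 1.45 in the EYFP line. The EYFP line had the smallest difference for each of these 4 genes. For Aim2 the differences lay between -0.04 and 0.01.

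In the fit across all genes, 4 of 5 members passed the level for testing in the hippocampal line and 4 passed the threshold (adjusted p of limma, 0.05), where 77.3% of all tested genes did. In the tdTomato line 2 of 5, Ifi203 and Mndal, were tested and 2 passed, where 79.3% of all tested genes did. No member was tested in the EYFP line, where 74.9% of tested genes passed. Members reached the testing level only through the astrocyte group in which they were high, so those tested had to differ and nothing is read from these counts. In bulk cultures, fewer cells that express a gene and less RNA per cell cannot be told apart.

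Between the traced lines, tdTomato astrocytes exceeded EYFP astrocytes by 2.57 for Ifi203, 2.34 for Ifi204 and 2.14 for Mndal. Those differences ranked 20th, 25th and 38th from the highest of 15448 genes. For Ifi202b the difference was 0.81, with overlapping libraries. In NSCs the same lines differed by 0.06 or less for these 4 genes, close to the no-read level of each.

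Ifi209, a further member of the family that was not among those selected, had the same order as Mndal. Its astrocyte means were 4.82 ± 0.05 in the tdTomato line, 4.55 ± 0.33 in the hippocampal line and 2.63 ± 0.45 in the EYFP line (SD, n = 3), and its NSC means were 1.77, 2.44 and 1.44. Astrocytes exceeded NSCs by 3.05 (SE 0.21) in the tdTomato line and by 2.10 (SE 0.27) in the hippocampal line, and EYFP minus tdTomato astrocytes gave -2.20 (SE 0.26). Like the members, Ifi209 reached the testing level only through the higher group of each of these comparisons, so no p-value is given for them. The difference between traced and hippocampal astrocytes was -0.82 (SE 0.63, limma adjusted p = 0.3), and with 1 fit over all 6 groups the same difference had an adjusted p of 0.0037. Of the 75-base stretches of Ifi209, 23.1% also occurred in Ifi214, whose own value did not exceed 0.13 in any library.

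The other 7 family genes with a row stayed below the testing level. Ifi203-ps, a pseudogene, stood at 2.87 to 3.23 in hippocampal astrocytes and 1.25 to 1.78 in tdTomato astrocytes, and Ifi211 at 2.62 to 3.00 and -0.01 to 1.71. Both were within 0.1 of their lowest in all 9 NSC libraries. Of the stretches of Ifi211, 63.6% were shared with other genes, 695 of them with Ifi205, 393 with Ifi204 and 178 with Mndal. Ifi205, Ifi207, Ifi208, Ifi213 and Ifi214 did not exceed 0.13 in any library. Of 15 further family symbols listed, 7 had no row and are not analysed here.

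**Figure D2:**
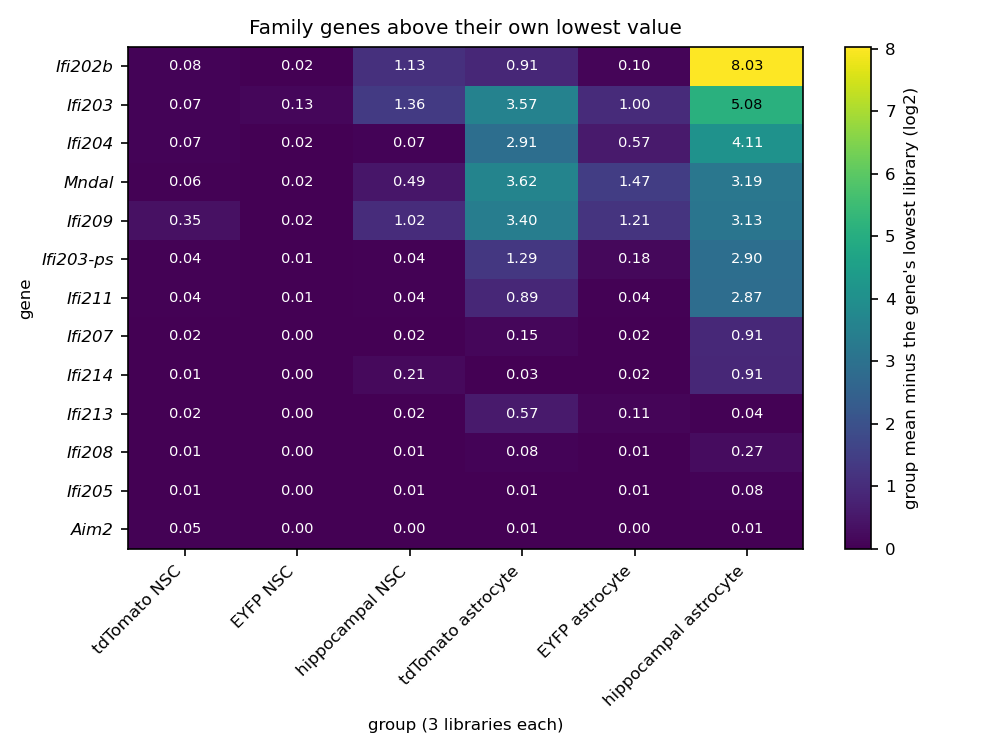
Mean of each group (columns, 3 libraries each) minus the gene's own lowest library, on the deposited log2 scale, for 13 family genes (rows), with the colour giving the same number as the text in each cell. The hippocampal astrocyte column reaches 8.03 for Ifi202b, the tdTomato astrocyte column 3.62 for Mndal, and the EYFP astrocyte column at most 1.47.

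Markers of other cell types were measured in the same libraries, and microglia are known to express this family. Of 12 microglial and macrophage markers listed, 8 had a row and 1, Cd68, a lysosomal gene also found outside macrophages, reached the testing level in all 3 libraries of each group. The log2 of their sum was 5.71 to 5.95 in hippocampal astrocytes, 5.53 to 5.85 in tdTomato astrocytes and 5.93 to 6.18 in EYFP astrocytes, above 5.22 to 5.49 in NSCs, and the EYFP and hippocampal ranges overlapped. Cd68 itself rose on BMP4 by 0.43 (SE 0.16, limma adjusted p = 0.03) in the tdTomato line, 0.75 (SE 0.14, limma adjusted p = 0.00082) in the EYFP line and 0.49 (SE 0.14, limma adjusted p = 0.011) in the hippocampal line. Itgam, the microglial integrin CD11b, stood between -2.14 and -2.13 in all astrocyte libraries, at its no-read level, and Ptprc, the pan-leukocyte marker CD45, at -1.14 or below. For the 5 of 7 dendritic cell markers with a row the log2 of the sum was 8.63 to 8.78, 8.70 to 8.77 and 8.82 to 8.87 in the hippocampal, tdTomato and EYFP astrocytes, above 8.25 to 8.46 in NSCs. Zbtb46, at 8.45 to 8.75 in the astrocyte and 8.08 to 8.33 in the NSC libraries, made up most of that sum. Xcr1, a chemokine receptor of one dendritic cell type, stood at 4.35 to 4.70 in hippocampal, 3.04 to 3.46 in tdTomato and 3.78 to 3.98 in EYFP astrocytes and at 1.41 to 2.00 in NSCs, and its traced minus hippocampal difference passed (-0.96, SE 0.23, limma adjusted p = 0.0049). The 6 listed fibroblast and pericyte markers all had a row, and the log2 of their sum was higher in astrocytes, at 6.14 to 6.43 in the hippocampal, 6.72 to 7.0 in the tdTomato and 6.42 to 6.78 in the EYFP line, than in NSCs, at 4.99 to 5.40. Rgs5, a pericyte gene, had means of 5.83 to 6.00 in the astrocyte groups and 2.06 to 2.62 in the NSC groups. Dcn and Lum, matrix proteoglycan genes, had means of 2.44 and 4.46 in tdTomato, 1.05 and 3.79 in EYFP and 0.16 and 1.56 in hippocampal astrocytes. The collagen gene Col1a2 stayed within 0.1 of its lowest value in all 18 libraries, and Pdgfrb, the pericyte receptor, did not exceed 0.01. By limma 1 of 3 tested markers of this set fell in the EYFP line and 1 of 2 in the hippocampal line. In both lines it was the collagen gene Col1a1, and 0 of 3 fell in the tdTomato line. Over all genes 5483 of 14668, 5642 of 14781 and 5811 of 14727 fell in these lines. The 4 of 5 endothelial markers with a row summed to 3.52 to 4.18 in astrocytes and 4.53 to 5.18 in NSCs. The part of these markers in the members' values was not tested.

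The pathway in which the members act was followed through a list of 87 genes of cytosolic DNA sensing and interferon response, of which 85 had a row. On BMP4, 31 of 69 tested genes of the list rose and 23 fell in the tdTomato line, 28 of 69 rose and 22 fell in the EYFP line, and 46 of 75 rose and 21 fell in the hippocampal line (limma). Together 78.3%, 72.5% and 89.3% of the tested list genes passed, beside 79.3%, 74.9% and 77.3% of all genes, and the median difference over the list was 0.11, 0.10 and 0.77, beside 0.00, 0.00 and 0.01 over all genes. Of 14 tested DNA sensors and cofactors, 12 were lower and 1 higher in tdTomato astrocytes, 11 lower and 0 higher in EYFP astrocytes, and 13 lower and 0 higher in hippocampal astrocytes, beside 5811 of 14727, 5483 of 14668 and 5642 of 14781 lower over all genes.

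Among the genes that fell was Cgas, the enzyme that makes the second messenger cGAMP on DNA, with differences of -1.83 (SE 0.16) in the tdTomato line, -2.21 (SE 0.13) in the EYFP line and -1.78 (SE 0.19) in the hippocampal line. Tmem173, which encodes the STING adaptor that Cgas and Ifi204 act through, fell in each line (difference -2.34, SE 0.14, in the tdTomato line, -1.63, SE 0.12, in the EYFP line and -1.66, SE 0.13, in the hippocampal line). Hmgb2, a chromatin protein that binds DNA, fell in the tdTomato line (difference -3.73, SE 0.09), the EYFP line (-3.66, SE 0.07) and the hippocampal line (-3.44, SE 0.07). The limma adjusted p was at most 1.6e-05 for each of these 9 changes. The astrocytes with higher family values were thus lower in Cgas and Tmem173 than their NSCs.

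Of the tested interferon-induced genes 12 of 18 rose and 1 fell in the tdTomato line, 13 of 18 rose and 2 fell in the EYFP line and 23 of 23 rose in the hippocampal line, beside 5869 of 14727, 5501 of 14668 and 5788 of 14781 that rose over all genes. The level required for testing fixed part of these counts: 6 of the 23 reached it in no hippocampal NSC library and 10 not in all of them. In each traced line 2 of 18 reached it in no library of the lower group and 4 not in all of them. In the hippocampal line the largest rise was that of Oasl2, an antiviral enzyme relative, from 2.85 to 10.70 (7.85, SE 0.30). Oasl2 was among the 6 that reached the testing level in no hippocampal NSC library, so no p-value is given for it. The next were those of Ifit1, which holds back viral RNA translation, from 3.09 to 10.36 (7.26, SE 0.32, limma adjusted p = 2.1e-08), and Ifit3 from 4.16 to 10.81 (6.65, SE 0.20, limma adjusted p = 1.8e-09). The same gene Ifit3 rose by 3.43 (SE 0.25) in the tdTomato line and by 2.77 (SE 0.14) in the EYFP line. Gbp2, a guanylate-binding GTPase, rose by 3.05 (SE 0.10) and 2.91 (SE 0.09) there, and Igtp, an immunity-related GTPase, by 1.93 (SE 0.20) and 1.87 (SE 0.20).

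Traced and hippocampal astrocytes differed in this part of the pathway. Of 75 tested list genes 7 were higher and 42 lower in traced astrocytes, and 65.3% passed beside 52% of all genes, with a median of -0.42 beside -0.01. Of 23 tested interferon-induced genes 22 were lower and Mx2, at 0.45 (adjusted p = 0.05 after rounding), did not pass. Here 4 of the 23, Mx1 among them, reached the testing level in no traced library, so no p-value is given for Mx1. Oasl2 was lower (difference -6.76, SE 0.26, limma adjusted p = 2.2e-08), and so were Mx1, a dynamin-like antiviral GTPase (difference -5.64, SE 0.36) and Ifit1 (difference -4.85, SE 0.34, limma adjusted p = 1.2e-06). The opposite direction was seen for Samhd1, which breaks down nucleotides (1.16, SE 0.07), Prkdc, the DNA-end kinase (0.72, SE 0.10), and Rnaseh2b, a subunit of the nuclease that removes RNA from DNA (0.39, SE 0.06), each with a limma adjusted p of at most 0.00032. Beside these values, the members' traced minus hippocampal astrocyte differences were -7.52 for Ifi202b, -2.80 for Ifi203, -2.36 for Ifi204, -0.65 for Mndal and 0.00 for Aim2. The traced lines differed in this: hippocampal minus tdTomato was 1.51 for Ifi203, 1.19 for Ifi204 and -0.43 for Mndal. Hippocampal minus EYFP was 4.09, 3.53 and 1.72 for the same genes. In NSCs of the same lines 8 of 65 tested list genes were higher and 7 lower, 23.1% beside 19.4% of all genes, with a median of -0.01. Enpp1, which degrades cGAMP, was higher in traced NSCs by 1.16 (SE 0.14, limma adjusted p = 0.00027) and Gbp3 lower (difference -0.99, SE 0.18, limma adjusted p = 0.0045). Without hippocampal NSC replicate 3 the number of list genes that passed went from 15 to 9, and from 2822 to 1745 over all genes.

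In astrocytes of the traced lines, whose values of Ifi203, Ifi204 and Mndal did not overlap, 6 of 70 tested list genes were higher and 7 lower in the EYFP line, 18.6% beside 11.2% of all genes, with a median of -0.02. A fit blocked on replicate number passed 15 of 70, beside 3049 of 14615 over all genes. The traced libraries are shared with the comparison above. Without tdTomato astrocyte replicate 3 the number that passed in the unblocked fit fell from 13 to 8, and from 1641 to 1154 over all genes. Of 19 tested interferon-induced genes 3 were higher and 4 lower. Gbp2 was higher by 0.51 (SE 0.08, limma adjusted p = 0.0051), Xrcc5, the Ku80 subunit that holds DNA ends, by 0.33 (SE 0.06, limma adjusted p = 0.0075) and Gbp7 by 0.39 (SE 0.09, limma adjusted p = 0.024). Lower values were found for Gbp3 (difference -0.49, SE 0.13, limma adjusted p = 0.046), Ifit3 (difference -0.41, SE 0.09, limma adjusted p = 0.024) and Irf9, a transcription factor of interferon signalling (difference -0.32, SE 0.08, limma adjusted p = 0.042). Of these 6, the calls of Gbp7, Gbp3, Ifit3 and Irf9 depended on single libraries. Gbp7 missed the threshold without replicate 1 or 3 of either group (adjusted p = 0.057 to 0.088), Gbp3 without any 1 of the tdTomato replicates or EYFP replicate 2 or 3 (0.055 to 0.15), Ifit3 without any 1 of the tdTomato replicates or EYFP replicate 1 or 2 (0.058 to 0.091) and Irf9 without tdTomato replicate 1 or 3 or any 1 of the EYFP replicates (0.052 to 0.14). The widest differences of the list lay in genes of lower level that were picked out after their values were seen. Casp4, the inflammasome caspase that senses lipopolysaccharide, stood at 4.21 in EYFP and 6.43 in tdTomato astrocytes (difference -2.22, SE 0.20, limma adjusted p = 0.00023), and Irf7, the factor that drives interferon genes, at 3.83 and 5.08 (difference -1.25, SE 0.21, limma adjusted p = 0.0063). Ifi35, an interferon-induced leucine zipper gene, went the other way, at 5.97 and 3.92 (2.05, SE 0.21, limma adjusted p = 0.00042).

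In NSCs of the traced lines 13 of 65 list genes were higher and 8 lower in the EYFP line, 32.3% beside 33.2% of all genes, with a median of -0.02. The number that passed went from 21 to 10 without tdTomato NSC replicate 2, to 12 without tdTomato NSC replicate 3 and to 12 without EYFP NSC replicate 1. Over all genes 2790, 2861 and 2840 passed in these settings, beside 4748 in the full fit. Gbp7 was higher in EYFP NSCs by 1.16 (SE 0.17, limma adjusted p = 0.0016) and Tmem173 lower (difference -0.88, SE 0.15, limma adjusted p = 0.0032), while the members were at or near their lowest values in both groups.

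**Figure D3:**
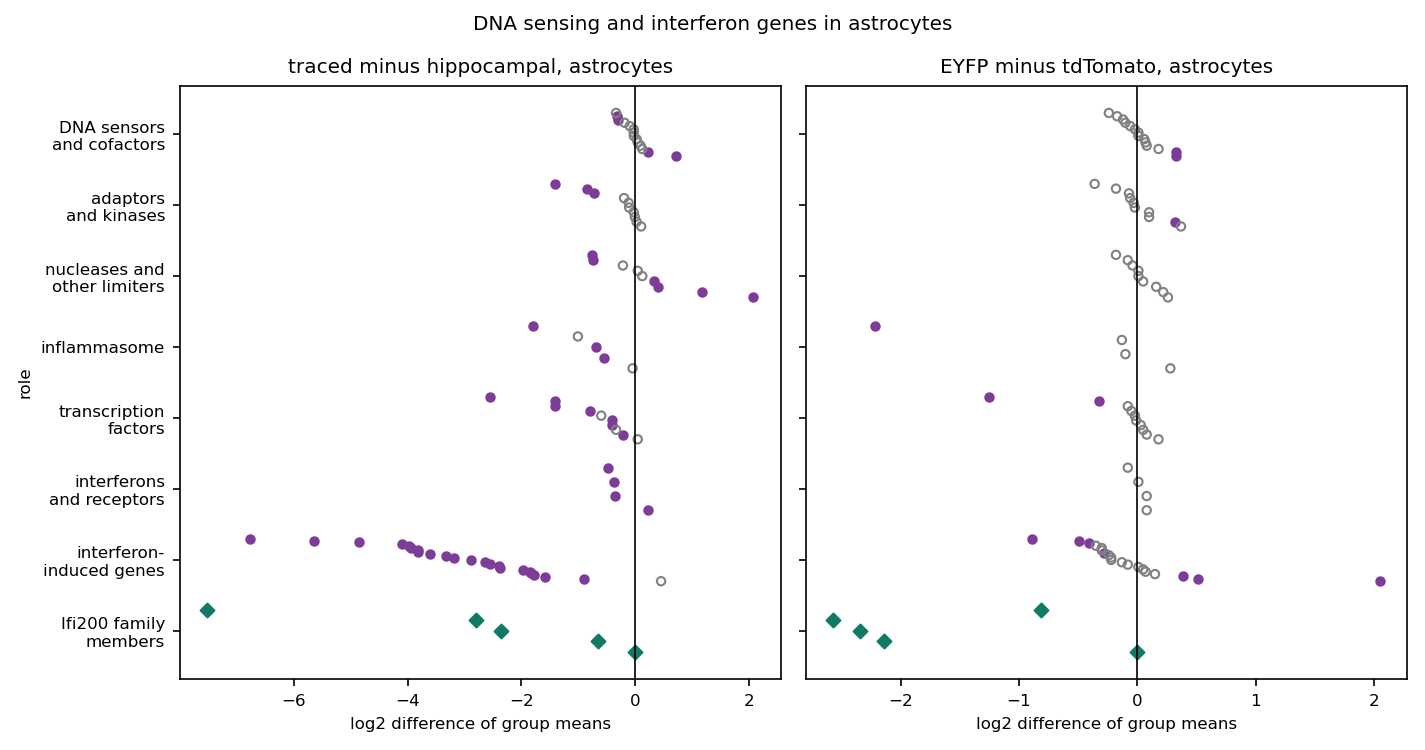
Log2 difference of group means (x axis) for the tested DNA sensing and interferon genes by role (rows), for traced minus hippocampal astrocytes (left) and EYFP minus tdTomato astrocytes (right), with filled circles for adjusted p under 0.05, open circles otherwise and diamonds for the 5 members, which carry no test. On the left 22 of 23 interferon-induced genes lie below 0 and Ifi202b at -7.52, and on the right the members Ifi203, Ifi204 and Mndal lie between -2.57 and -2.14 while 12 of 19 interferon-induced genes are open circles.

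To see whether whole chromosome surroundings moved with the family, the 64 genes within 2 Mb on either side that had a row were compared between lines. Between EYFP and tdTomato astrocytes 5 of 28 tested neighbours passed, 1 higher and 4 lower in the EYFP line, 17.9% beside 11.2% of all genes. This number was 3 without tdTomato astrocyte replicate 1 or 2 or EYFP astrocyte replicate 1, and 2 without tdTomato astrocyte replicate 3 or EYFP astrocyte replicate 3. Over all genes 989 to 1573 passed in these settings, beside 1641 in the full fit. A fit blocked on replicate number passed 8 of 28, beside 3049 of 14615 genes. Cadm3, the gene on the other strand of Aim2, was lower in EYFP astrocytes (difference -1.15, SE 0.22, limma adjusted p = 0.0099) and in EYFP NSCs (difference -0.96, SE 0.12, limma adjusted p = 0.00082). Aim2 stayed at its no-read level in these libraries except tdTomato NSC replicate 2, at -1.99. In NSCs 4 of 26 neighbours were higher and 11 lower in the EYFP line, 57.7% beside 33.2% of all genes.

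Between traced and hippocampal astrocytes 10 of 29 tested neighbours were higher and 9 lower, 65.5% beside 52% of all genes, and in NSCs 9 of 26 were higher and 4 lower, that is 13 of 26 beside 19.4% of all genes. Tagln2, an actin-binding protein, was higher in traced cells by 6.01 (SE 0.21, limma adjusted p = 4.3e-08) in NSCs and by 2.89 (SE 0.19, limma adjusted p = 7.6e-07) in astrocytes. The neighbours thus went in both directions, and Ifi202b at 7.12 had the widest difference between hippocampal and tdTomato astrocytes of the genes plotted.

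**Figure D4:**
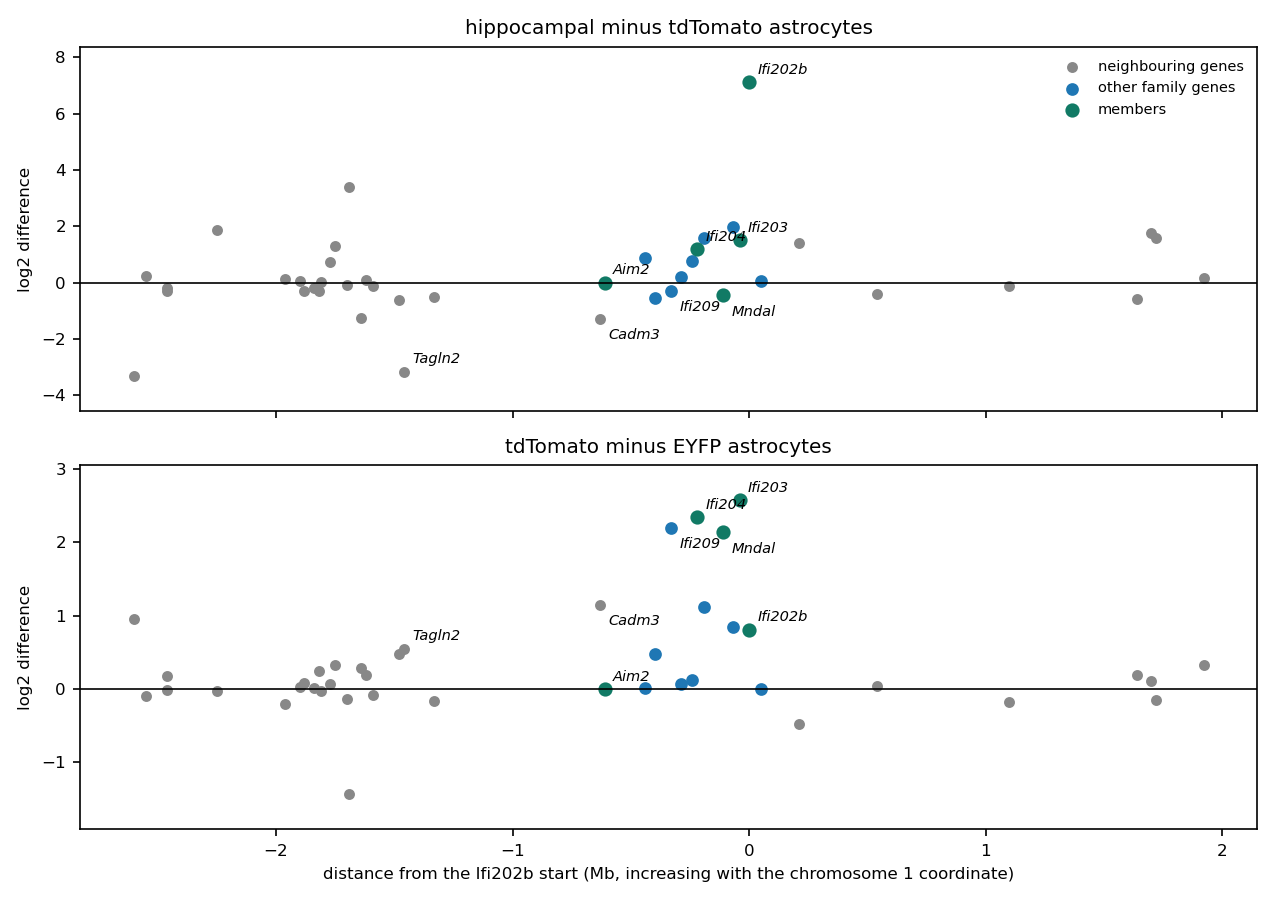
Log2 difference of group means (y axis) against distance from the Ifi202b start in Mb (x axis) for members, other family genes and the 29 neighbours that passed the level of 3.32 over all libraries, for hippocampal minus tdTomato astrocytes (top) and tdTomato minus EYFP astrocytes (bottom). Ifi202b lies at 7.12 in the upper panel, and Ifi203, Ifi204, Mndal and Ifi209 lie between 2.14 and 2.57 in the lower one, above Cadm3 at 1.15.

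Genes with a pattern like that of each member were sought among 7081 candidates outside the family by Pearson's r over the 18 libraries, which share line and fate, so r is a description. For Ifi202b they were Heg1 (r = 0.98), Mx1 (r = 0.976) and Kcna1 (r = 0.976), of which Mx1 is an interferon-induced gene. Mx1 held a mean of 7.03 in hippocampal astrocytes, 2.28 in hippocampal NSCs and 0.92 to 1.41 in the other 4 groups. For Ifi203 they were Prdm16 (r = 0.955), Prex2 (r = 0.955) and BC051142 (r = 0.949). For Ifi204 they were Jcad (r = 0.956), Irf7 (r = 0.954) and Dnajb13 (r = 0.954), and Irf7 held a mean of 5.08 in tdTomato and 3.83 in EYFP astrocytes and 6.63 to 7.49 in hippocampal astrocytes. For Mndal they were Col22a1 (r = 0.954), Akr1c19 (r = 0.948) and Bmp6 (r = 0.947). Aim2 varied too little over the groups for such a search.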

How the data were processed

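RNA was sequenced from 18 libraries of 3 lines in 2 fates. The deposited values are log2 expression values per Ensembl gene, which the authors made with STAR 2.5.2, RSEM 1.3.0 and DESeq2 1.18.1 on GRCm38 (versions from the submitters' processing notes). They behave like regularized-log values, a transform the sources used here do not name for this table. Counts cannot be recovered from them, so the depth per library behind a value is unknown and no counting interval is given. Columns were matched to samples by their labels, and symbols came from GENCODE M21.

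The members and gene lists were chosen with earlier results of these data known. Groups were compared with limma 3.58.1 (R 4.3.3, empirical Bayes with trend), each comparison on its own libraries, restricted to genes that reached 3.32, or 10 before the logarithm, in 3 or more of those libraries, with Benjamini-Hochberg adjustment over all tested genes and a threshold of 0.05. For the members, fits were used for differences, standard errors and counts. Planned tests of whether the members' change on BMP4 differed between lines were not made, because differences between lines were among the values with which the members were chosen. Besides the 5 members and the family, the text names, per comparison, the 3 largest rises and falls that passed among list genes and, between lines, neighbours, with a mean of at least 6.64 (100 on the linear scale) in the higher group, and the 3 most alike genes per member. For neighbours, and for list genes between NSCs of different lines, only the largest rise and fall of these are printed, and 1 neighbour is not reported here. The fit was tested on simulated data. Shared 75-base stretches came from GENCODE M21, and promoters from RefSeq (GRCm38.p6), aligned with Biopython 1.88. The alternatives were no filter, a filter at 100, a pseudocount of 10, median centring, quantile normalization, no trend, 1 fit of 6 groups, the replicate number as a block, and leaving out each library.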

Additional observations from a re-analysis of the deposited data

How the results depend on the processing

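Of 74 differences of single genes, 61 kept their direction and call under every alternative, and none of 1101 alternative values reversed direction. Most of the 74 were picked as the largest that had passed, and those of the members reached testing only through their high group. Keeping a call was thus partly fixed by the choice, and no robustness is read from the 61. Counts moved by over 1.5 times in few settings. Without the filter, 1 member instead of 0 passed in the EYFP line (5 tested, beside 11806 of 27997 genes), 13 instead of 21 list genes between EYFP and tdTomato NSCs, and 2 instead of 5 neighbours between EYFP and tdTomato astrocytes. With the filter at 100, 1 member (Ifi202b, the only one tested) instead of 4 passed in the hippocampal line, beside 9367 of 11508 genes. Nothing is read from these member counts. With 1 fit of 6 groups, 25 instead of 15 list genes passed between traced and hippocampal NSCs. That fit gave each traced line its own mean, and 4864 instead of 2822 of 14541 genes passed in it. Of the genes named by the rule between EYFP and tdTomato astrocytes, these missed the threshold, losses on leaving out a library aside: Cadm3 (adjusted p = 0.09), Gbp3 (0.13), Irf9 (0.12), Tagln2 (0.076) and Fh1 (0.1) without the filter, Gbp3 (0.063) with quantile normalization, Gbp3 (0.069), Irf9 (0.083) and Fh1 (0.11) without the trend, and Gbp7 (0.094) and Ifit3 (0.28) with 1 fit of 6 groups. The cause of the changes in list and neighbour counts was not tested.

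Leaving out 1 library at a time, with the genes tested kept as in the full comparison, gave 2 to 2 members in the tdTomato line and 4 to 4 in the hippocampal line. Over all genes 10989 to 11641 of 14727 and 10824 to 11391 of 14781 passed there. The tested members had to differ, as said above, so nothing is read from their unchanged counts. List genes that passed numbered 53 to 55, 48 to 53 and 64 to 68 between NSC and astrocyte in the tdTomato, EYFP and hippocampal lines, 9 to 16 and 45 to 50 between traced and hippocampal NSCs and astrocytes, and 10 to 21 and 8 to 11 between EYFP and tdTomato NSCs and astrocytes. Neighbours that passed numbered 9 to 14, 16 to 19, 13 to 16 and 2 to 4 in these 4 line comparisons. Over all genes 1745 to 2886, 6573 to 7821, 2790 to 5235 and 989 to 1609 passed in them, and 10212 to 10673 between fates of the EYFP line.

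Replicate numbers are shared across groups, and the labels do not say what a number marks. Deviations of same-numbered libraries correlated at -0.0765 to 0.0338 between a line's 2 fates (0 of 9 over 0.1) and at 0.0117 to 0.313 between lines of a fate (9 of 18 over 0.1). A library's best match in another line of its fate had its own number in 31 of 36 cases, 5 of 6 between EYFP and tdTomato astrocytes. This is a hint from the data, which the stated passages leave possible without settling it. The numbers were not taken to pair libraries, since in no comparison was every correlation over 0.1. With the replicate block, 15 instead of 13 list genes and 8 instead of 5 neighbours passed between EYFP and tdTomato astrocytes, and 1641 became 3049 over all genes. The other counts stayed within 1.5 times. The smallest values cannot be told from no reads on this scale, which limits what can be said of Aim2 and of the members in NSCs.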
